A study of Mus musculus with 7 samples.

Results

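Of the autosomal regions where Fos chromatin immunoprecipitation followed by sequencing (ChIP-seq) gave a peak in mouse hippocampus, 2180 were called after saline and not after kainic acid. They were found by merging the peaks of all 6 lists that overlapped by 1 bp or more and keeping regions on chromosomes 1 to 19 with a saline peak and no kainic acid peak. They made up 3.19% of 68249 merged autosomal regions, beside 1052 (1.54%) with peaks of both treatments and 65017 with kainic acid peaks only. The mice were wild-type C57BL/6J animals of 2 months, and all libraries came from hippocampus. Both groups held 3 libraries. The saline group received PBS. The kainic acid group received 2 intraperitoneal injections of 10 mg/kg spaced by 30 min, and hippocampi were taken 1 hour after the first of these from mice that had reached level 4 seizures. An input library without antibody is also listed, and no peak list of it was used here. The labels do not say how many mice went into a library, nor that libraries of a group came from separate mice.

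All 2180 regions came from saline replicate 2. Saline replicate 1 had 4 autosomal peaks, all shared with kainic acid, and saline replicate 3 had 0. What follows therefore describes 1 library and has no second saline library beside it. The regions were chosen by the peak calls themselves, so the absence of kainic acid peaks at these regions is how they were chosen and not a finding.

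Fos pairs with Jun proteins to form AP-1, a transcription factor that binds the palindrome TGANTCA, mostly at enhancers. Neurons at rest hold little Fos and make it quickly after strong activity, of which a kainic acid seizure is an extreme form. Many promoters of broadly expressed genes lie in CpG islands, stretches rich in CG pairs that stay unmethylated and open, and such promoters often carry GC boxes bound by Sp1-type factors. In bulk tissue, binding in few cells and weak binding in many cells cannot be told apart.

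The sequences of 4 promoters with a saline-only summit are shown as examples of CG-rich start sites. Each run holds the 250 bases before a RefSeq start site in assembly GRCm38.p6, read 5′ to 3′ on the gene's strand. Capitals mark every CG pair and every match to TGANTCA. They are 4 promoters of high fold with the peak summit inside the promoter window, of which Axin2 and Prpf40b were picked after their values were seen. Axin2 encodes a scaffold that restrains Wnt signalling (chr11:108920099-108920348, plus strand), Slc4a3 an anion exchanger (chr1:75546212-75546461, plus strand), Adap1 a GTPase-activating protein for Arf6 that is abundant in neurons (chr5:139325465-139325714, minus strand) and Prpf40b a pre-mRNA splicing factor (chr15:99294991-99295240, plus strand).
Axin2: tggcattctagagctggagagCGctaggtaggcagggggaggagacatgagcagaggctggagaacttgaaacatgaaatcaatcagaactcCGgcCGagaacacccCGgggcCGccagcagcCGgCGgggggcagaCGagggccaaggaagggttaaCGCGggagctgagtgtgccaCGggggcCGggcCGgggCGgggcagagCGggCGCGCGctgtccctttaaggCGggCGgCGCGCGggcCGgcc
Slc4a3: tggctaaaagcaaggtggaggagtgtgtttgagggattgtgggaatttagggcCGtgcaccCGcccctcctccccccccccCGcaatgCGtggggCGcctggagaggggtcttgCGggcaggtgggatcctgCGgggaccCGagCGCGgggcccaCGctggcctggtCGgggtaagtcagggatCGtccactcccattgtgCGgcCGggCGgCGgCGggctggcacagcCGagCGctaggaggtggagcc
Adap1: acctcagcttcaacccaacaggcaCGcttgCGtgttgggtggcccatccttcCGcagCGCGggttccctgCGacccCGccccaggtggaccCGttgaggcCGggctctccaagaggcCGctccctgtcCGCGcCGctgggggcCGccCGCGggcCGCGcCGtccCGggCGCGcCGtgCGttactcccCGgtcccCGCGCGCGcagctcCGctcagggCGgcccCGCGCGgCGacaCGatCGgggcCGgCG
Prpf40b: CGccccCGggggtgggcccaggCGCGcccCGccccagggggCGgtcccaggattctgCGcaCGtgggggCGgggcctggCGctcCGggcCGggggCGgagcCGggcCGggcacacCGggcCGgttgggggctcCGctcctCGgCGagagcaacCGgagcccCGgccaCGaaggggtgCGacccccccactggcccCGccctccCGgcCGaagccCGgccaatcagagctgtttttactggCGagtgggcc
They hold 24, 20, 39 and 29 CG pairs for Axin2, Slc4a3, Adap1 and Prpf40b, and no match to TGANTCA. The deposited fold over local background was 7.32 at Axin2, 6.25 at Slc4a3, 6.18 at Adap1 and 5.95 at Prpf40b, all in saline replicate 2 and not called in the other 5 lists.

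For contrast, 2 promoters come from regions called after both treatments and 1 from a region called in all 3 kainic acid lists and in no saline list. These were picked after their values were seen, for a TGANTCA match in the window and a high fold. Upp1 encodes uridine phosphorylase (chr11:9117758-9118007, plus strand), Rc3h1 an RNA-binding ubiquitin ligase (chr1:160906161-160906410, plus strand) and Pacsin2 a membrane-bending protein of endocytosis (chr15:83447881-83448130, minus strand).
Upp1: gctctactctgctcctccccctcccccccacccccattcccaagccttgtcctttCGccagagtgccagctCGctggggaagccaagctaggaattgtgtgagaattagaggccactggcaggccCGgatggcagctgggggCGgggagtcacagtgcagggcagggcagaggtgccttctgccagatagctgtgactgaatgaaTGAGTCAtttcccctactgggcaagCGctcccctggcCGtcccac
Rc3h1: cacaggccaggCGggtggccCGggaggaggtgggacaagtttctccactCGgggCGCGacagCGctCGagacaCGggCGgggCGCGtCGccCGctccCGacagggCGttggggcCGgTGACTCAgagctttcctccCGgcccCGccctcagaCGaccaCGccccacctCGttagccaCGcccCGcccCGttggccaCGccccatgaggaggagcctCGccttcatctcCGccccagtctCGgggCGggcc
Pacsin2: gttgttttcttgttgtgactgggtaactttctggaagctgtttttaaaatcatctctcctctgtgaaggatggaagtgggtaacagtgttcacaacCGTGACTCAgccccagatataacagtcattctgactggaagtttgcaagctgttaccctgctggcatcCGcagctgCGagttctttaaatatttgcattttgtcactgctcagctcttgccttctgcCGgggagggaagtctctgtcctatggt
Upp1 has its match 45 bases before the start, Rc3h1 133 and Pacsin2 152 bases before it. At Upp1 the fold was 5.18 in saline replicate 2 and 5.09 in kainic acid replicate 2, the only kainic acid list with a peak there. At Rc3h1 it was 4.96 in saline replicate 2 and 4.25, 8.11 and 4.89 in kainic acid replicates 1, 2 and 3. At Pacsin2 it was 8.57, 17.4 and 8.96 in the kainic acid lists, and its 250 bases hold 4 CG pairs. Folds are the authors' values, each scaled within its own library, so they are not compared between libraries.

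The saline-only peaks held few reads, and so did most kainic acid peaks. Their fold ranged from 1.66 to 7.88 with a median of 4.15, and their −log10 q from 1.35 to 15.7 with a median of 3.88. The files give no read totals. The number of reads over a summit was therefore solved from fold and p, which gave a whole number for all 3258 autosomal peaks of saline replicate 2. A saline-only summit held a median of 19 reads (quartiles 16 and 22, lowest 11) over a median background of 3.71. Solved in the same way, autosomal peaks of kainic acid replicates 1, 2 and 3 had medians of 22, 20 and 24 reads. Their median backgrounds were 3.82, 3.32 and 4.87. Median peak width was 250 bp, and the quartiles were 215 and 311 bp. The 1078 peaks of the same library in regions shared with kainic acid had a median fold of 4.20, 19 reads and a width of 272 bp. Fold in the shared peaks ran from 2.36 to 7.39, so both sets covered much the same range. With −log10 q of at least 5 in all lists, 601 regions were saline-only, of which 530 were among the 2180, since that limit also removes kainic acid peaks.

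The border between saline-only and shared regions was narrow. A saline-only region at the start of Selenoi, which encodes a phospholipid-making enzyme (chromosome 5, 30232397 to 30232635, fold 4.36), and one upstream of Dusp7, a phosphatase of ERK kinases (chromosome 9, 106367619 to 106367892, fold 5.52), touched a kainic acid peak end to end without overlap. A region near Rnft1 on chromosome 11 lay 2 bp from one. On the other side, regions near Ercc6l2 (chromosome 13, fold 3.75) and Cotl1 (chromosome 8, fold 4.39) were shared by 1 bp of overlap, and one inside Psd2 (chromosome 18, fold 3.19) by 2 bp. In all, 137 saline-only regions lay under 100 bp from a kainic acid peak, and 85 of 1078 shared peaks overlapped one by under 50 bp. With every region within 1 kb of a kainic acid peak removed, 1433 were left.

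Most saline-only regions lay at gene ends, and a small share of the kainic acid-only regions did, though these were more in number (6080). An end of a coding gene lay within 1 kb of the summit of 1323 of 2180 regions, 60.7% (95% Clopper-Pearson interval 58.6 to 62.7). It was 55.9% (52.9 to 58.9) for the shared peaks of saline replicate 2 and 9.35% (9.13 to 9.58) for kainic acid-only regions. Intervals cover counting error only, and regions of 1 library are not replicates. By library, regions of a single treatment gave 60.7% in saline replicate 2 and 5.73%, 9.63% and 6.97% in kainic acid replicates 1, 2 and 3, a mean of 7.44% ± 2.00 (SD, n = 3). The exact permutation test over libraries gave p = 0.25 (two-sided, adjusted p = 0.25 over 2 comparisons), the smallest that 1 library against 3 allows. The difference was 53.2 percentage points. The saline value is that of 1 library, so its own spread is unknown and no difference between treatments is shown. Median width was 250 bp against 405 bp ± 58.4 (SD, n = 3), with the same exact permutation p = 0.25, and width depends on the fragment length of each library.

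**Figure D1:**
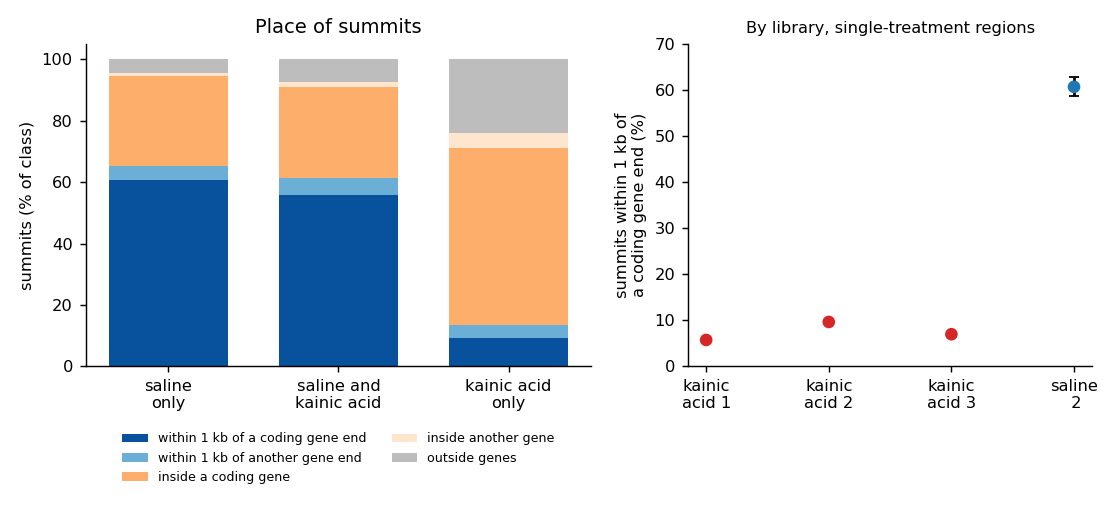
Left, share of summits (% of class) by place for 2180 saline-only regions, 1078 saline replicate 2 peaks shared with kainic acid and 65017 kainic acid-only regions. Right, share of summits with a coding gene end within 1 kb by library, over regions of a single treatment, with 95% Clopper-Pearson bars, where saline replicate 2 sits at 60.7% and the 3 kainic acid libraries between 5.73% and 9.63%.

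Most of the other saline-only regions lay inside genes. Of the 2180, 633 (29%) were deeper inside a coding gene, 103 (4.72%) within 1 kb of the end of another kind of gene, 24 (1.10%) inside such a gene and 97 (4.45%) outside genes. Outside genes the kainic acid-only share was 23.9%, and inside coding genes it was 57.5%. The gene table gives no exons, so an exonic, intronic or UTR position is not stated here.

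The coding ends at saline-only regions were mostly starts. By the strand of RefSeq promoter windows, 1024 of the 1323 (77.4%) were starts and 47 (3.55%) finishes. For 252 (19%) the strand was not given. For kainic acid-only regions at coding ends, starts made up 64.7% and finishes 15.6%. Of 2137 saline-only summits on chromosomes with listed start sites, 58.6% (56.5 to 60.7) lay within 1 kb of a start site and 34.6% (32.6 to 36.7) within 200 bp. The shared peaks gave 58.0% and 32.3%, and kainic acid-only regions 9.57% and 2.47%. Saline-only summits were most frequent in the last 100 bp before the start, with 10.3% of all summits in that bin, and their median position within 1 kb was 34 bp downstream. Start sites on both strands lay within 1 kb for 19% (16.9 to 21.3) of the saline-only summits at start sites. It was 17.2% for shared and 13.6% for kainic acid-only summits. Of all listed start sites, 15.4% have one of the other strand within 1 kb, a narrower measure that runs from start to start.

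**Figure D2:**
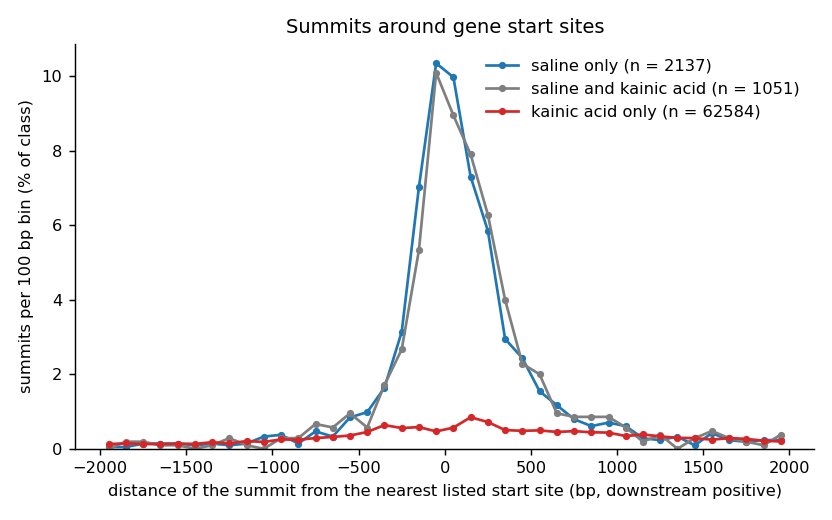
Summits per 100 bp bin (% of class) against distance from the nearest listed start site (bp, downstream positive) for saline-only regions, shared peaks of saline replicate 2 and kainic acid-only regions. Both saline classes peak at the start site, at 10.3% and 10.1% in the bin just upstream, while the kainic acid-only line stays under 1% in every bin.

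Saline-only peaks at gene ends held more reads, but also lay on a higher background. At coding ends the median was 20 reads over a background of 4.24, with a fold of 4.03. Elsewhere it was 16 reads over 2.83, with a fold of 4.31. Outside genes it was 16 reads over 2.71. Ranked by fold and divided into 4 sets of 545, saline-only regions had 70.5% (66.4 to 74.3) at coding ends in the lowest set, then 62.0% and 52.8%, and 57.4% (53.2 to 61.6) in the highest. The median −log10 q was 4.03 at coding ends and 3.63 elsewhere. How the control library sets the background there was not tested.

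The saline-only peaks of highest fold at coding ends lay at genes of many kinds. The highest was between Snap47, a SNARE protein, and Jmjd4, a lysyl hydroxylase (chromosome 11, 59449940 to 59450316). It had a fold of 7.08 from 22 reads over 2.25, and its summit was 115 bp inside the Jmjd4 start. Next came the finish of Fbxl19, an F-box protein that binds CpG islands (chromosome 7, 127768482 to 127768947, fold 7.0), and the start of Clstn2, a synaptic calsyntenin (chromosome 9, 98032426 to 98032749, fold 6.88). Ccdc107 followed with a fold of 6.58, then Dll3, a Notch ligand, at its finish (6.46), and Zfp276, a zinc finger gene (6.44). The others were Grb14, an adaptor of the insulin receptor (6.39), Ccnd2, cyclin D2 (6.29), Ano8, an anoctamin (6.27), Slc4a3 (6.25), Atp13a2, a lysosomal polyamine transporter (6.19), and Adap1 (6.18). Their summits held 20 to 30 reads. The Snap47 peak lay 121 bp and the Adap1 peak 187 bp from a kainic acid peak, while the Grb14 peak had none within 29551 bp.

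Of the 6 peaks of highest fold farther than 1 kb from a coding end, the strongest lay inside Trp53i11 (chromosome 2, 93199132 to 93199490, fold 7.88 from 26 reads over 2.43), which was also the highest fold of all saline-only peaks. The peak in the Axin2 promoter shown above (chromosome 11, 108920076 to 108920391, fold 7.32) lay 80 bp from a kainic acid peak. It falls here because the outer end of the gene lies 2388 bp away, while the listed start site is 133 bp from the summit. A further peak, inside Ano8 (chromosome 8, 71484437 to 71484790), had a fold of 7.08. One outside genes, 17525 bp from Ppp4r4 (chromosome 12, 103514542 to 103514870), had 7.03. One inside Dnmt3a, a DNA methyltransferase (chromosome 12, 3833784 to 3834044), had 6.63, and one inside Crocc2 (chromosome 1, 93210303 to 93210571) had 6.47.

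Promoters with saline-only summits were rich in CG pairs. A listed promoter window runs from 250 bases before to 50 after a start site, and 528 of 31396 autosomal windows (1.68%) held a saline-only summit. Those windows had a median of 29 CG pairs (quartiles 22 and 36) and 68.3% G and C. The 223 windows with a shared summit (0.71% of all windows) also had a median of 29. The 981 with a kainic acid-only summit (3.12%) had 13, and all windows had 7. Of windows with 0 to 9 CG pairs, 0.0909% (16 of 17596) held a saline-only summit. The share was 1.38% at 10 to 19 pairs, 3.80% at 20 to 29 and 6.87% (6.09 to 7.72) at 30 or more. Kainic acid-only summits did not follow this order, with 1.98%, 5.80%, 4.25% and 3.28%. Shared summits did, with 0.0227%, 0.546%, 1.74% and 2.85%.

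**Figure D3:**
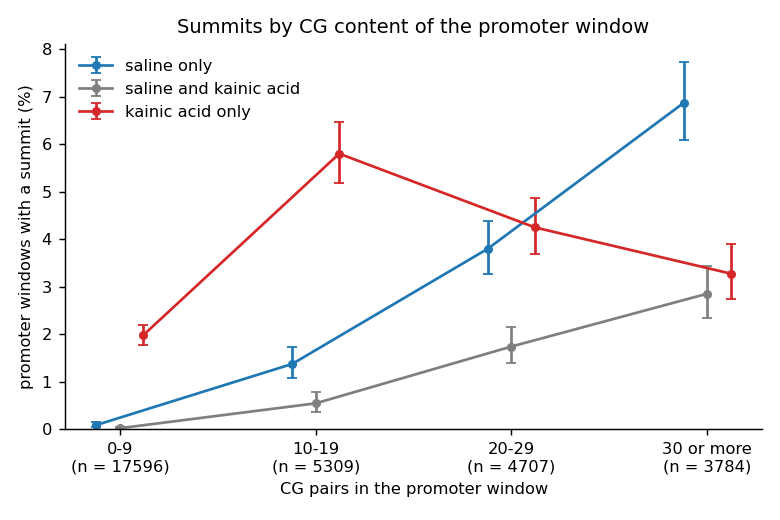
Share of listed promoter windows that hold a summit (%) against the number of CG pairs in the window, with 95% Clopper-Pearson bars. Saline-only summits go from 0.0909% to 6.87% over the 4 classes, and kainic acid-only summits are highest at 10 to 19 CG pairs, at 5.80%.

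The AP-1 motif was rare in these windows. TGANTCA, which reads the same on both strands, was present in 6 of 528 windows with a saline-only summit, 1.14% (0.418 to 2.46), beside 7.84% of all listed windows. It was in 27 of 223 windows with a shared summit, 12.1% (8.13 to 17.1), and in 301 of 981 with a kainic acid-only summit, 30.7% (27.8 to 33.7). For kainic acid-only regions in 2 or 3 lists it was 55.1% (49.6 to 60.6). CG-rich windows hold the motif less often, so the same was counted in windows with 20 or more CG pairs. There it was 0.456% (0.0552 to 1.64, 2 of 439) for saline-only, 11.6% for shared and 18.8% for kainic acid-only summits, beside 2.73% (2.40 to 3.10) of all such windows. The rule divides the peaks of saline replicate 2 by whether kainic acid gave a peak there. Before that division, all 629 CG-rich windows with a summit of this library held the motif in 3.82% (2.46 to 5.62), an interval that held the 2.73% of all CG-rich windows. Seen from the promoters, of CG-rich windows with the motif 0.862% had a saline-only, 9.48% a shared and 26.3% a kainic acid-only summit. Of those without it, 5.29% had a saline-only, 2.03% a shared and 3.18% a kainic acid-only summit. Saline-only and shared summits are both summits of saline replicate 2, so the low saline-only share with the motif depends on the rule. A match of letters is a description and shows no binding.

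**Figure D4:**
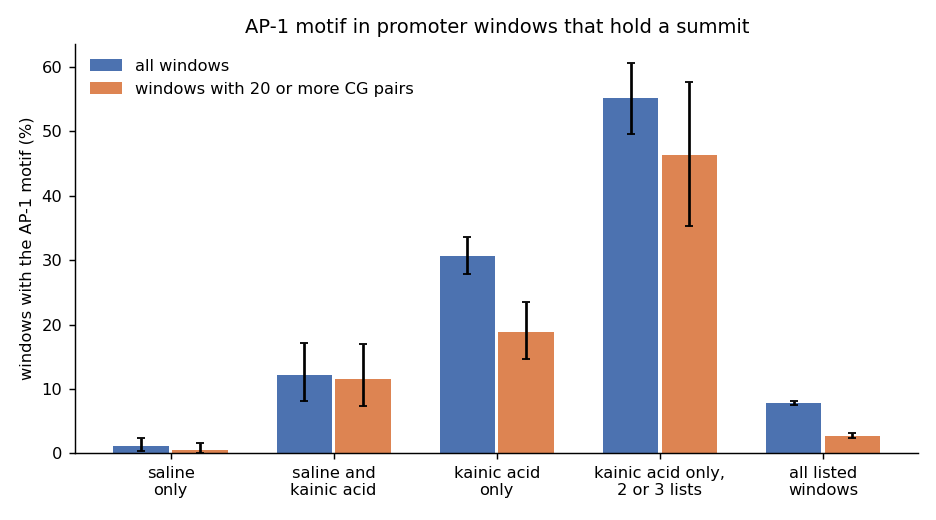
Share of promoter windows with TGANTCA (%) among windows that hold a summit of each class and among all listed windows, for all windows and for those with 20 or more CG pairs, with 95% Clopper-Pearson bars. Saline-only windows are lowest, at 1.14% and 0.456%.

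The 6 saline-only promoters with the motif were those of Ap1g2, a subunit of a clathrin adaptor, Fmnl3, a formin, Tomm34, a mitochondrial import factor, Ucma, a cartilage protein, Plppr2 and the non-coding Gm46116. Only Fmnl3 and Tomm34 of these had 20 or more CG pairs, with 30 and 20. Folds at the 6 ran from 2.73 to 4.93. Ucma and Gm46116, both at 4.93, fell in the highest of the 4 sets of saline-only regions by fold, which ran from 4.65 to 7.88. The 6 promoters are named here after their values were seen.

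Other short motifs were counted on both strands in the same windows, as descriptions. The GC box GGGCGG was in 87.5% (84.4 to 90.2) of windows with a saline-only summit, 91.0% with a shared and 42.1% with a kainic acid-only one, beside 36% of all windows. Among CG-rich windows it was 92.3% for saline-only summits and 81.0% of all. The ETS-type motif CCGGAAG was in 17.4%, beside 9% of all windows, and in CG-rich windows in 18.7% against 19.6% of all. The cAMP response element TGACGTCA, bound by CREB, was in 1.70% beside 1.83% of all windows, and in CG-rich windows in 2.05% (0.942 to 3.86) beside 3.87%. CG-rich windows with a shared summit held it in 5.26%. Before the division by kainic acid peaks, those with any summit of saline replicate 2 held it in 3.02% (1.83 to 4.68), an interval that held 3.87%. The YY1-type motif AAGATGGC was in 3.60% beside 2.75%, and in CG-rich windows in 3.42% beside 4.45%. The TATA box TATAAA was in 3.22% (1.89 to 5.11) beside 13.6% of all windows, and in CG-rich windows in 2.73% (1.42 to 4.73) beside 3.70%. TGAGTCA, a special case of TGANTCA, was in 0.758% beside 5.26%.

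Saline-only regions touched many genes once. A saline-only summit lay within 1 kb of an end of 1469 of 20661 autosomal coding genes, which is 7.11%, and 70 genes had 2, the highest number. For comparison, 26.4% of the genes had a kainic acid-only summit at that reach and 3.23% a shared one. Of the 1469 genes, 509 (34.6%) also had a kainic acid-only summit within 1 kb, and 1167 (79.4%) had one within 10 kb, beside 57.9% of all coding genes. Genes with saline-only regions had a median length of 25.9 kb, against 17.5 kb for all coding genes.

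Among genes with 2 saline-only regions, the highest summed fold belonged to Actg1, cytoplasmic gamma-actin. Its peaks lay 243 bp inside (fold 5.84) and 564 bp before its start (fold 5.19). Dusp7 had peaks 838 and 42 bp before its start, with folds of 5.52 and 5.30. Lrrc8c, a subunit of a volume-regulated anion channel, had one 136 bp before and one 238 bp inside its start (4.58 and 6.04). Mmp24, a membrane-bound metalloproteinase, had one 328 bp before its start (5.23) and one 940 bp from its finish (5.25), which is also the Eif6 peak and lies 75 bp before the start of BC029722. Cyc1, cytochrome c1, had folds of 5.31 and 4.96.

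Saline-only regions lay at genes of most housekeeping groups. The highest share among lists of over 30 genes was that of ubiquitin enzymes and ligase subunits, with 32 of 190 genes, 16.8% (11.8 to 22.9), among them Usp22, a histone deubiquitinase (fold 5.60), and Fbxl19. Chromatin modifiers had 15 of 102, 14.7% (8.47 to 23.1), with Kat2a, a histone acetyltransferase (5.54), and Kmt2d, a histone methyltransferase (5.25), whose peak lay at its finish and 8 bp from the start of Prkag1. Splicing and RNA helicase genes had 19 of 136, 14.0% (8.63 to 21.0), with Prpf40b (5.95). Membrane traffic genes had 21 of 172, 12.2% (7.72 to 18.1), with Vps9d1 at the Zfp276 peak (6.44) and Rab3b, a vesicle GTPase (5.23). The lower bounds of these 4 lists lay above the 7.11% of all coding genes. This was not particular to saline-only regions. In the same order, 35.8%, 42.2%, 40.4% and 44.2% of the genes had a kainic acid-only summit, beside 26.4% of all coding genes. A shared summit lay at 5.26%, 3.92%, 4.41% and 5.81%, beside 3.23%. The lists were matched by symbol, so the ubiquitin list also holds relatives such as Usp6nl that are not ubiquitin enzymes. They were chosen with earlier results of these data known, and no test was run on them.

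Other housekeeping lists had intervals that reached 7.11%. Chaperones had 11 of 90 genes (12.2%), with Dnajb11 (5.60) and Dnajb1 (5.31), both partners of Hsp70-type chaperones. Translation factors had 8 of 67 (11.9%), with Eif6 (5.25) and Eef2 (4.81), the latter at its finish, 108 bp before the start of Dapk3. Cell cycle and DNA repair genes had 16 of 140 (11.4%), with Ccnd2 and Cdk2ap1 (5.34). Mitochondrial carriers and import factors had 6 of 67 (8.96%), with Tomm34 (4.56) and Slc25a28 (4.37). Transfer RNA synthetases had 3 of 34 (8.82%), namely Cars2 (4.80), Fars2 (4.37) and Nars2 (3.12), which all act in mitochondria. RNA polymerase subunits and general factors had 8 of 101 (7.92%), with Gtf3a (5.00) and Polr1d (4.40). Zinc finger genes had 29 of 455 (6.37%), with Zfp276 and Zbtb7a (5.25).

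Ribosomal protein and respiratory chain genes had shares below 7.11%, with intervals that held it. Cytosolic ribosomal proteins had 4 of 80 genes (5%), Rpl9 (3.93), Rpl36 (3.89), Rps21 (3.85) and Rpl27a (3.40). A kainic acid-only summit lay at 41 of the 80 (51.25%), beside 26.4% of all coding genes. Mitochondrial ribosomal proteins had 5 of 78 (6.41%), led by Mrps18c (4.81) and Mrpl53 (4.20). The respiratory chain had 5 of 94 (5.32%), led by Cyc1 (5.31) and Ndufb7 (4.85). The proteasome had 0 of 48 (interval up to 7.40%) and replication-dependent histones 0 of 67 (up to 5.36%). A kainic acid-only summit lay at 25 of the 48 proteasome genes (52.1%) and at 25 of the 67 histone genes (37.3%), beside the same 26.4%. Odorant receptors had 0 of 1100 (up to 0.335%) and liver genes 0 of 20. No gene of either list had a listed promoter window with 20 or more CG pairs.

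**Figure D5:**
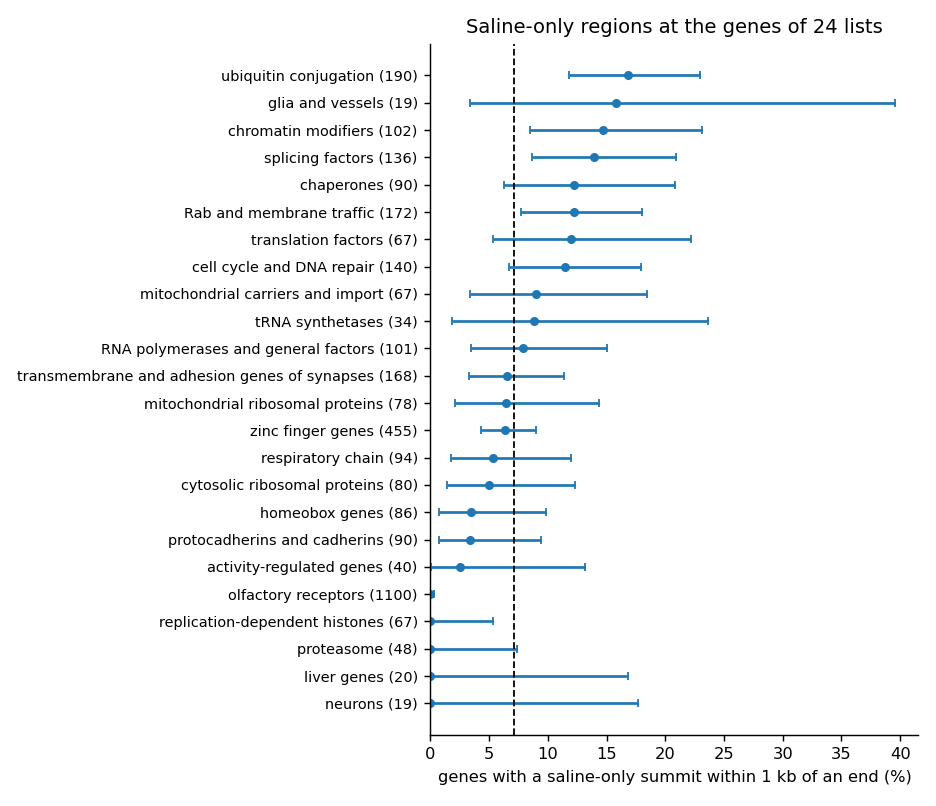
Share of the genes of each of 24 lists with a saline-only summit within 1 kb of an end (%), with 95% Clopper-Pearson bars and the number of genes in brackets. The dashed line marks the 7.11% of all autosomal coding genes, and ubiquitin conjugation lies above it at 16.8%, while activity-regulated genes are at 2.5% here and at 27.5% with kainic acid lists of equal length.

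The lists were also counted among genes with CG-rich promoters only. Of 6623 coding genes with a promoter window of 20 or more CG pairs, 931 had a saline-only summit within 1 kb of an end, which is 14.1%, beside 6.36% with a shared and 39.7% with a kainic acid-only one. On that footing ubiquitin genes had 21.7% (13.8 to 31.6), chromatin modifiers 20% (10.8 to 32.3), splicing genes 17% (9.87 to 26.6), membrane traffic genes 14.9% (8.20 to 24.2) and ribosomal proteins 7.89% (1.66 to 21.4). Every one of these intervals held 14.1%. Synaptic receptor, channel and adhesion genes went from 6.55% (11 of 168) to 17% (8 of 47, interval 7.65 to 30.8). They included Hcn4, a pacemaker channel (5.31), and Grin2c, an NMDA receptor subunit (5.25).

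Genes that respond to neuronal activity carried mostly kainic acid-only summits. Of 40 such genes, 1 (2.5%, interval 0.0633 to 13.2) had a saline-only summit within 1 kb, 10 (25%) a shared one and 33 (82.5%) a kainic acid-only one, beside 7.11%, 3.23% and 26.4% of all coding genes. The share of these 40 genes with a saline-only summit rested on the length of the kainic acid lists. It was 15% without kainic acid replicate 2, beside 9.04% of all coding genes, and 27.5% with kainic acid lists of equal length, beside 9.80%. With the full lists the one gene was Fos itself. Its saline-only peak (chromosome 12, 85474288 to 85474573) had its summit 522 bp downstream of the start, with a fold of 3.71 from 17 reads over 3.86 and a −log10 q of 3.00. A further saline-only peak lay 1721 bp before the start (85472068 to 85472361, fold 4.97, 21 reads) and another 10775 bp before it (85462977 to 85463230, fold 4.62, 14 reads). Kainic acid-only regions lay between and around them, with summits 5852 and 2051 bp before and 2706, 4518, 11655 and 14038 bp after the start. These were called in 2, 1, 2, 1, 1 and 3 kainic acid lists. Along this stretch the saline-only peaks lay among the kainic acid-only ones, and the lack of overlap follows from the rule.

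The counts at cell type markers were small, and their intervals held the 7.11% of all coding genes. Of 19 autosomal markers of glia and vessels, 3 (interval 3.38% to 39.6%) had a saline-only region, namely Olig1 (fold 5.07) of oligodendrocytes, Aldh1l1 (4.48) of astrocytes and Flt1 (3.77) of endothelium, and none of the microglial markers did, while 3 of the 19 had a kainic acid-only summit and 0 a shared one. Of 19 neuronal markers 0 had a saline-only region (interval up to 17.6%), while 11 (57.9%) had a kainic acid-only and 2 (10.5%) a shared summit. Over all coding genes those shares were 26.4% for kainic acid-only and 3.23% for shared summits. The saline-only share of neuronal markers also rested on the length of the kainic acid lists. It was 5.26% without kainic acid replicate 2, beside 9.04% of all coding genes. With kainic acid lists of equal length it was 10.5%, beside 9.80%. The share of glia and vessel markers was 15.8% in both settings, as with the full lists. Peak calls at markers do not measure how many cells of a type a library held. Homeobox and related developmental genes had 3 of 86, Sox1 (4.93), Sox12 (3.80) and Hoxc6 (2.86), and cadherins 3 of 90, Cdh22 (5.07), Cdh11 (5.04) and Cdh4 (4.04).

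Genes without a protein product had lower shares than coding genes. The share with a saline-only summit within 1 kb was 2.06% of 12408 lncRNA genes, 2.11% (24) of 1136 miRNA genes, 0.113% (10) of 8884 pseudogenes and 0 of 1286 snoRNA genes. Of 391 transfer RNA genes 4 (1.02%) had one, n-TTcgt3, n-TCgca51, n-TRtct2 and n-TSaga9. A kainic acid-only summit lay at 102 of the 391 (26.1%), close to the 26.4% of coding genes. The only snRNA gene was Rnu12, the U12 RNA of the minor spliceosome (fold 3.5), which lies near the coding gene Poldip3. Many of these ends are close to coding starts. Among the 24 miRNA genes were Mir210, a hypoxia-induced miRNA (342 bp from the summit, fold 3.97), Mir760 (238 bp, 4.12) and the neighbours Mir2861 and Mir3960, which share 1 peak near Cdk9 (2.99). These miRNAs are named after their values were seen.

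A small set of saline-only regions stood on a very high background. In 6 of 2180 the solved background was over 20 reads, while the next highest was 10.6 and the highest among shared peaks of this library was 9.19. Of these 6, 4 lay side by side on chromosome 17, from 39843473 to 39848856, at a stretch that includes Rn18s-rs5, annotated as a pseudogene related to 18S ribosomal RNA. Their backgrounds were 157, 158, 120 and 131 reads, their summits held 268, 263, 207 and 261 reads, and their folds were 1.70, 1.66, 1.72 and 1.98. The nearest kainic acid peak was at least 1085913 bp away. Ribosomal RNA genes exist in many copies, and reads of those copies cannot be told apart there. The other 2 lay at Gm36876 on chromosome 11 (fold 2.21, background 41.0) and Gm40237 on chromosome 4 (2.29, 28.3). At the other extreme, 300 saline-only regions (13.8%) lay on the lowest background of the list, 2.25 reads.

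Saline-only regions were spread over all 19 autosomes, from 43 on chromosome 18 to 215 on chromosome 11. Per 100 coding genes they ran from 6.27 on chromosome 13 to 15.3 on chromosome 15. Over the 19 chromosomes their number had a Pearson r of 0.815 with the number of coding genes and of 0.708 with the number of kainic acid-only regions (Spearman's rho 0.845 and 0.748), given as a description of chromosomes that differ in size. The share at coding ends ranged from 54.4% on chromosome 11 to 72.5% on chromosome 3. Neighbouring saline-only regions were a median of 252 kb apart, and 86 pairs lay within 1 kb of each other.

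Most saline-only regions had kainic acid peaks in their surroundings. The median gap to the nearest kainic acid peak was 3100.5 bp, and 34.3% of the regions had one within 1 kb, 70.1% within 10 kb and 99% within 100 kb. This rested mainly on the longest list: within 10 kb the share was 21.2% for kainic acid replicate 1, 68.9% for replicate 2 and 41.3% for replicate 3, whose lists held 14890, 62620 and 29425 autosomal peaks. Without kainic acid replicate 2 the saline-only set grew to 2759 regions, and without replicate 1 it stayed at 2180.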

How the data were processed

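Fos ChIP-seq was measured in hippocampus of saline and kainic acid mice, with 3 libraries a group. Per the submitters' processing notes, the tools included Trim Galore 0.6.4, Bowtie2 2.3.4.3, MACS2 and deepTools 3.5.0, with the mm10 build. The 6 deposited peak lists, 1 per library, name a mapping quality of 30 in their peak names. They give for each peak the authors' score, which is 10 times −log10 q cut to a whole number, the deposited fold over local background, and deposited p and q values as −log10. The authors' q limit, control library and fragment length are not given in the sources used here, nor are read totals.

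Reads over each summit and the local background were solved from fold and p with a tolerance of 0.001. Peaks were merged at 1 bp of overlap. Gene ends came from RefSeq's table of GRCm38.p6 for 20661 autosomal coding genes, and start sites and strands from 31396 promoter windows, which matched 16456 of these genes (79.6%). Windows run from 250 bases before to 50 after a start. As no genome was used, motifs were searched only in these windows. Intervals are Clopper-Pearson at 95%. Scripts used Python 3.11.15, numpy 2.4.6, pandas 2.3.3 and scipy 1.17.1, and were tested on simulated data.

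The members and gene lists were chosen with earlier results of these data known. Genes are named as the 12 highest folds at coding ends, the 6 highest elsewhere, the 2 highest in each list, all activity-regulated genes and the 5 genes with the highest summed fold over 2 regions. Other names, and the promoters of Axin2, Prpf40b, Upp1, Rc3h1 and Pacsin2, were chosen after their values were seen. One gene that the rule names is not reported here. Alternatives changed the q limit, the overlap rule, the reach, the motif and the libraries used.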

Additional observations from a re-analysis of the deposited data

How the results depend on the processing

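Alternative values were found for the count, the share at coding ends, median width, median fold, the share of coding genes and the motif share. Of 61 such values, 43 stayed within their limits and 18 moved. The 43 include values that could not move. The saline libraries other than replicate 2 gave no saline-only region, so leaving either out changed nothing. Leaving out kainic acid replicate 1 also left the values found for it unchanged. With −log10 q of at least 5 in all lists, 601 regions were left (530 of the 2180), with 70.9% at coding ends, a width of 278 bp, a fold of 4.94 and 2.36% of coding genes. With kainic acid peaks within 1 kb removing a region, 1433 were left, with 57.0% at coding ends, a fold of 4.20 and 4.47% of genes. When only a kainic acid summit within 200 bp removed a region, 8.25% of genes had one. With the kainic acid lists cut to 3277 peaks each, 3064 regions were found, with a width of 255 bp and 9.80% of genes. These sets hold other regions by construction. The share at coding ends was 49.0% at a reach of 500 bp, 72.4% at 2500 bp and 65.4% over all annotated genes. The share of genes was 8.79% at 2500 bp and 12.4% at 10000 bp. Leaving out each library in turn gave 2180 to 2759 regions, 60.5% to 61.9% at coding ends, widths of 250 to 254 bp, folds of 4.14 to 4.15 and 7.11% to 9.04% of genes, the highest without kainic acid replicate 2. Without saline replicate 2 no region was left, so every result rests on that library. Without the 6 regions of background over 20 reads, an alternative chosen after seeing the data, 2174 regions had 60.9% at coding ends. Of 288 values for single lists, 30 moved. No paired analysis was possible because the labels tie no saline to a kainic acid library and 1 saline library gave all regions. Summits of 11 reads were the lowest called, and read totals are unknown.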

Other observations

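Outside the autosomes, 10 regions were called in saline and not in kainic acid. Saline replicate 2 gave 9 of them, with 3 on the mitochondrial genome at folds of 1.48, 1.57 and 1.90, 2 on X at folds of 3.66 and 4.39, and 4 on Y at folds of 3.43 to 4.67. Saline replicate 1 gave 1 on Y, from 145849 to 145897, with a width of 49 bp and a fold of 10.6. These regions entered no comparison.

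Of the 528 promoter windows with a saline-only summit, 9 held the cAMP response element TGACGTCA. The highest fold among them was 6.01 at Ccdc130 (chromosome 8, 84270293 to 84270620), whose 39 reads were the most of any saline-only summit at a coding end. The others included Nsmce3 (5.00), a subunit of the SMC5/6 complex, Ppp2ca (4.62), the catalytic subunit of protein phosphatase 2A, Ptprs (3.70), a receptor phosphatase of synapses, and Rpl27a (3.40). These genes were chosen after their values were seen. The share was 1.70% beside 1.83% of all windows. All 9 windows had 20 or more CG pairs, where the share was 2.05% (0.942 to 3.86) beside 3.87% of all such windows. For all summits of saline replicate 2 in such windows, shared ones included, it was 3.02% (1.83 to 4.68), an interval that held 3.87%.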
